A study of Mus musculus with 12 samples.

Results

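The 10 circadian clock genes described here are Arntl, Clock, Cry1, Cry2, Per1, Per2, Per3, Nr1d1, Nr1d2 and Dbp. They were chosen by name, and each is represented by whichever of its probe sets was brightest on average across the 12 arrays, on a log2 intensity scale. They are 10 of 18194 genes named on the array, and all 10 were among the 8795 genes that exceeded 4 on the log2 scale in 6 or more arrays. RNA came from whole cervix of pregnant CD1 mice, an outbred strain, on gestation day 15. In 1 group (MPA, n = 6 arrays) dams had received 1 mg of medroxyprogesterone acetate, a synthetic progestin, under the skin for 48 h, and in the other (vehicle, n = 6 arrays) the same volume of ethanol. No allele or transgene is named for either group. It is not stated if a dam gave RNA to only 1 array. The p-values therefore reflect how much the arrays of a group varied, part of which may be technical. The hour of injection and the hour of dissection are not given in the sources used here.

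As background, the mammalian clock is a transcriptional feedback loop that runs in most cells. ARNTL (also called BMAL1) and CLOCK bind DNA together at E-boxes and switch on the Per and Cry genes, whose proteins enter the nucleus and inhibit them. NR1D1 and NR1D2 form a second arm that represses Arntl, and DBP carries the rhythm to further genes through D-boxes. Levels of most of these transcripts in a tissue therefore depend on the hour of day, and glucocorticoids, whose receptor MPA also binds, are known to act on Per1 in several tissues.

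The DNA elements by which these genes act on each other can be read in their promoters. RefSeq windows of 250 bases before to 50 bases after the transcript start (GRCm38.p6) were given for 9 of the 10 genes. The stretches that hold a full E-box (CACGTG, its own reverse complement) or a full D-box (TTATGTAA, either strand) are shown with 30 bases on each side and with the element in capitals.
Per1, chr11:69098753-69098818, plus strand: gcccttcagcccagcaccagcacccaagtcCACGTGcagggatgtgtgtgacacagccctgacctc
Cry1, chr10:85185079-85185144, minus strand: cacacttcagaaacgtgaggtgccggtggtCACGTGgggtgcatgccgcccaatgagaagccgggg
Per3, chr4:151044786-151044900, minus strand: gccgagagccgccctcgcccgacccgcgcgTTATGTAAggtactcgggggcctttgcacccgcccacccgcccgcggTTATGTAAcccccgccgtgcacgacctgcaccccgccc
The E-box began 166 bases before the start in Per1 and 60 bases before it in Cry1, and the D-boxes of Per3 began 205 and 158 bases before it. Of all 32851 promoter windows of this length, 7.15% held this E-box and 0.938% this D-box. Of the 13 windows of these genes, 2 held the E-box and 1 the D-box. The hexamer AGGTCA (either strand) is the core that NR1D1, NR1D2 and the ROR proteins share with other nuclear receptors. It was in 4 of the 13 windows, 1 each of Clock, Arntl, Per1 and Nr1d2, and in 16.3% of all windows. The full palindromic glucocorticoid response element was in 0 of the 13 windows of these genes and in 3 of all windows, and its single arm AGAACA was in 0 of the 13 and in 19.0% of all (either strand for each). These matches describe letters in a short window only.

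No clock gene differed between MPA and vehicle beyond the spread between arrays. Of the 10, 6 had a higher mean in MPA and 4 a lower one, and the size of the difference was at most 0.27 on the log2 scale, a 1.20-fold difference, in Per1. By limma with Benjamini-Hochberg adjustment over all genes tested, 0 of the 10 passed at an adjusted p under 0.05 (all had an adjusted p = 1.00), where 0.0114% of the 8795 genes did. At an unadjusted p under 0.05 there were also 0 of the 10 (unadjusted p from 0.238 to 0.832), against 5.00% of all genes. The groups overlapped for all 10 genes, and 0.341% of all genes had groups that did not overlap. The 95% intervals of the 10 differences, from the fit with no covariates, lay between -0.64 and 0.81. In each gene this interval left out a 2-fold difference in probe set signal in either direction. Arntl, Per1, Per2 and Nr1d1 lay close to the log2 value of 4 that served as the filter. This is a low level, where background correction compresses differences, and their intervals cover the measured signal only. In whole tissue, fewer cells of a type and less RNA per cell cannot be told apart.

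**Figure D1:**
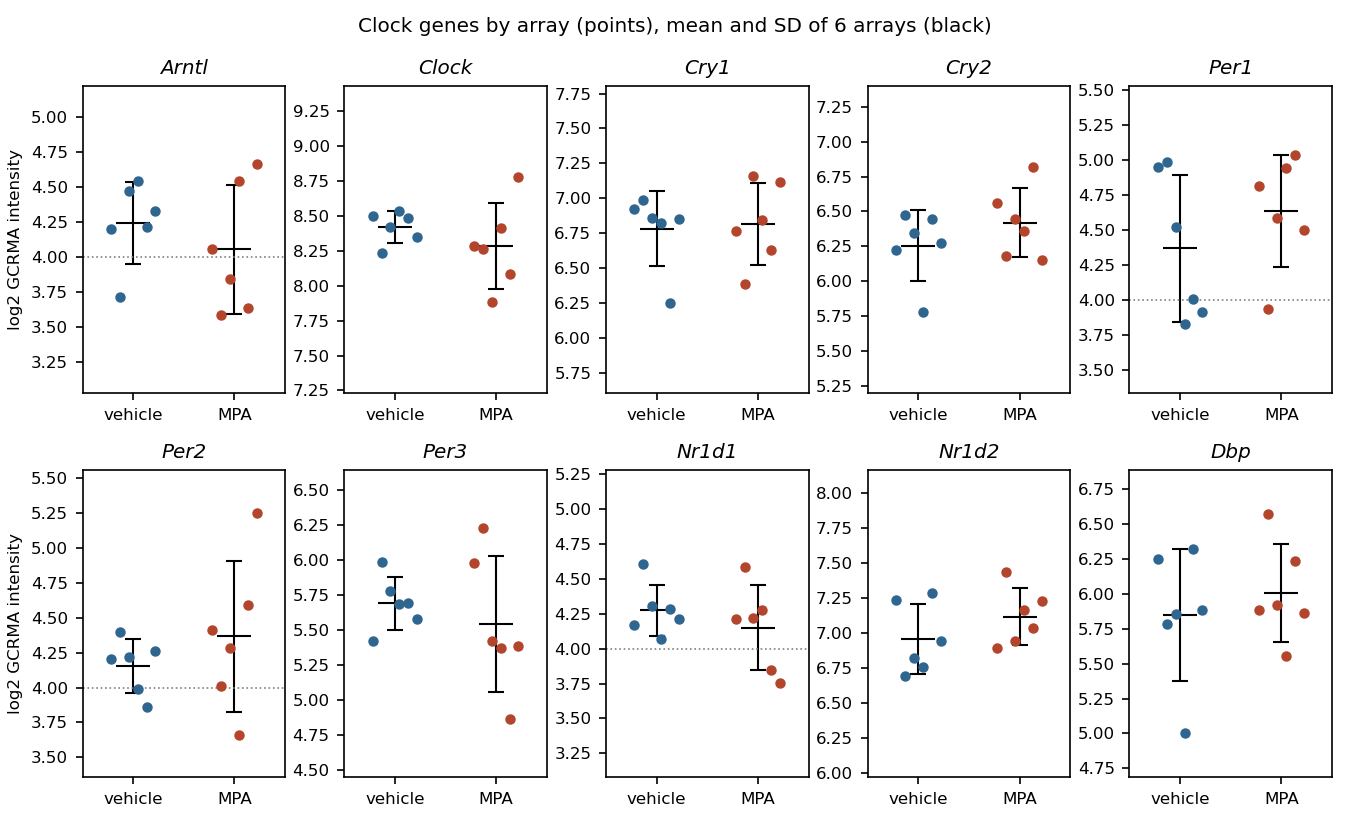
Log2 GCRMA intensity (vertical axis) of the 10 clock genes in the 6 vehicle arrays (blue) and the 6 MPA arrays (red), with the group mean and SD in black. The dotted line marks the log2 value of 4, each panel spans the same log2 range, and the groups overlap in every panel.

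The activators of the loop were measured at very different distances from background. Clock, a DNA-binding partner of ARNTL with acetyltransferase activity, ranged in MPA from 7.88 to 8.78 with a median of 8.27, and in vehicle from 8.23 to 8.53 with a median of 8.45. The vehicle arrays lay within the range of the MPA arrays. The group means of Clock were 8.28 ± 0.31 (SD, n = 6) for MPA and 8.42 ± 0.11 (SD, n = 6) for vehicle, a difference of -0.14 (SE 0.13, 95% interval -0.42 to 0.15). Arntl ranged in MPA from 3.58 to 4.67 with a median of 3.95, and in vehicle from 3.72 to 4.54 with a median of 4.27. Arntl was above 4 in 3 of the 6 MPA arrays and in 5 of the 6 vehicle arrays, and its difference was -0.19 (SE 0.21, interval -0.64 to 0.26). Both relatives of these activators passed the filter and had higher means in MPA, without passing the test. Npas2, which can stand in for CLOCK, differed by 0.44 (SE 0.22) and Arntl2, a paralog of Arntl, by 0.55 (SE 0.33). Neither passed at an unadjusted p under 0.05.

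Among the Period genes, whose proteins inhibit CLOCK and ARNTL, Per1 had the largest difference of the 10 genes over all 12 arrays and a wide spread in both groups. By size, Per1 was not the largest in several alternatives. Per2 was the largest without MPA 4 (0.35, Per1 0.20), without vehicle 4 (0.18, Per1 0.16) and without vehicle 6 (0.23, Per1 0.18). It was Per3 without MPA 1 (-0.236, Per1 0.231), Arntl without MPA 6 (-0.31, Per1 0.29) and Dbp without vehicle 5 (0.25, Per1 0.19). With the first principal component as a covariate it was Nr1d2 (0.20, Per1 0.15). Within fluidics station 2, Per3 (0.47) and Arntl (-0.45) both exceeded Per1 (0.41). Per1 ranged in MPA from 3.93 to 5.04 with a median of 4.70, and in vehicle from 3.83 to 4.99 with a median of 4.27. Vehicle 1, 2 and 3 stood at 4.95, 4.99 and 4.52, and the other vehicle arrays between 3.83 and 4.01. The difference was 0.27 (SE 0.25, interval -0.27 to 0.81). Per2 ranged in MPA from 3.66 to 5.25 with a median of 4.35, and in vehicle from 3.86 to 4.40 with a median of 4.21. The highest and the lowest Per2 values of the study were both MPA arrays, MPA 6 and MPA 4. The Per2 difference was 0.21 (SE 0.22, interval -0.26 to 0.69), and 0.037 without MPA 6. Per3, which is dispensable for the core loop in mice, ranged in MPA from 4.86 to 6.23 with a median of 5.40, and in vehicle from 5.42 to 5.98 with a median of 5.69. MPA 2 alone exceeded all vehicle arrays, and 4 of 6 MPA arrays lay below all of them. The Per3 difference was -0.15 (SE 0.20, interval -0.58 to 0.29), and -0.012 without MPA 5.

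The cryptochromes, the partners of PER in the inhibitory complex, exceeded a log2 value of 4 on all 12 arrays, and in each 1 vehicle array lay well below the others (vehicle 5 in Cry1 and vehicle 4 in Cry2). Cry1 ranged in MPA from 6.38 to 7.16 with a median of 6.81, and in vehicle from 6.25 to 6.99 with a median of 6.86. Its difference of 0.03 (SE 0.16, interval -0.30 to 0.37) was the smallest of the 10 genes over all 12 arrays. Cry2 ranged in MPA from 6.16 to 6.82 with a median of 6.40, and in vehicle from 5.78 to 6.47 with a median of 6.31. The Cry2 difference was 0.16 (SE 0.14, interval -0.14 to 0.47), and 2 MPA arrays exceeded all vehicle arrays.

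The nuclear receptors that repress Arntl had differences of opposite sign, and neither passed. Nr1d2 (REV-ERB beta) ranged in MPA from 6.89 to 7.44 with a median of 7.10, and in vehicle from 6.69 to 7.28 with a median of 6.88. Over all 12 arrays it had the smallest unadjusted p of the 10 genes, 0.238, with a difference of 0.16 (SE 0.13, interval -0.12 to 0.45). Nr1d1 (REV-ERB alpha) ranged in MPA from 3.75 to 4.59 with a median of 4.21, and in vehicle from 4.07 to 4.60 with a median of 4.25. The Nr1d1 difference was -0.12 (SE 0.14, interval -0.43 to 0.18), and MPA 5 and MPA 6 lay below all vehicle arrays. The Nr1d1 locus overlaps Thra in the RefSeq annotation, and whether signal of one gene reaches the probe set of the other was not tested. Rora, which activates Arntl at the same sites, differed by -0.02 (SE 0.12). Rorb stayed below a log2 value of 4 on all 12 arrays.

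Dbp, a PAR bZIP transcription factor that is among the most strongly rhythmic transcripts known from mouse liver, ranged in MPA from 5.56 to 6.57 with a median of 5.90, and in vehicle from 5.00 to 6.32 with a median of 5.87. Vehicle 4 had the lowest Dbp value and MPA 2 the highest, a 2.96-fold span. The group means of Dbp were 6.00 ± 0.35 (SD, n = 6) for MPA and 5.85 ± 0.47 (SD, n = 6) for vehicle, a difference of 0.16 (SE 0.22, interval -0.33 to 0.64). Dbp overlaps Sphk2 in the annotation, and Per3 overlaps Uts2, also a protein-coding gene. Arntl, Clock, Cry2 and Per2 overlap long noncoding RNA genes, and Clock a pseudogene as well. Whether signal is shared at any of these loci was likewise not tested. Tef, a relative of Dbp that binds the same D-box, differed by -0.02 (SE 0.09), and Hlf, the third relative, was below a log2 value of 4 on all 12 arrays. Nfil3, which represses at D-boxes, had a higher mean in MPA by 0.35 (SE 0.17, unadjusted p = 0.0630) and did not pass.

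Other genes of the clock pathway gave the same count of calls. Of 36 further genes looked for, 32 were on the array, 25 passed the filter and 0 passed the test in either direction, with 13 higher and 12 lower in MPA and a median difference of 0.01. The median over the 10 clock genes was 0.09, and over all genes tested it was 0.02. At an unadjusted p under 0.05 there was 1 of the 25, against 5.00% of all genes in either direction and 1.80% lower in MPA. That gene was Sfpq, a nuclear protein found with the PER complex, with a difference of -0.23 (SE 0.10, unadjusted p = 0.0395, adjusted p = 0.996). Among E-box repressors, Bhlhe40 had -0.34 (SE 0.18), Cipc -0.05 (SE 0.24), and Bhlhe41 and Ciart were below a log2 value of 4 on all 12 arrays. The 6 kinases and ubiquitin system genes that passed the filter differed by 0.06 or less in either direction, among them Usp7 with -0.06 (SE 0.10) and Gsk3b, a kinase of clock proteins, with 0.04 (SE 0.08). Tipin, the partner of the replication protein TIMELESS, differed by 0.21 (SE 0.21). Of the rhythmic output genes, Alas1, the first enzyme of heme synthesis, had 0.13 (SE 0.08), and Tsc22d3, a target of glucocorticoids and progestins, had 0.37 (SE 0.23). For comparison, Fkbp5, a known target of progestins and glucocorticoids, was higher in MPA by 0.86 (SE 0.14) with no overlap between the groups, and it too did not pass over all genes (adjusted p = 0.149). The 1 gene that passed was Wfdc15b, a small secreted protein of the whey acidic family, with 1.40 (SE 0.18, adjusted p = 0.0332).

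**Figure D2:**
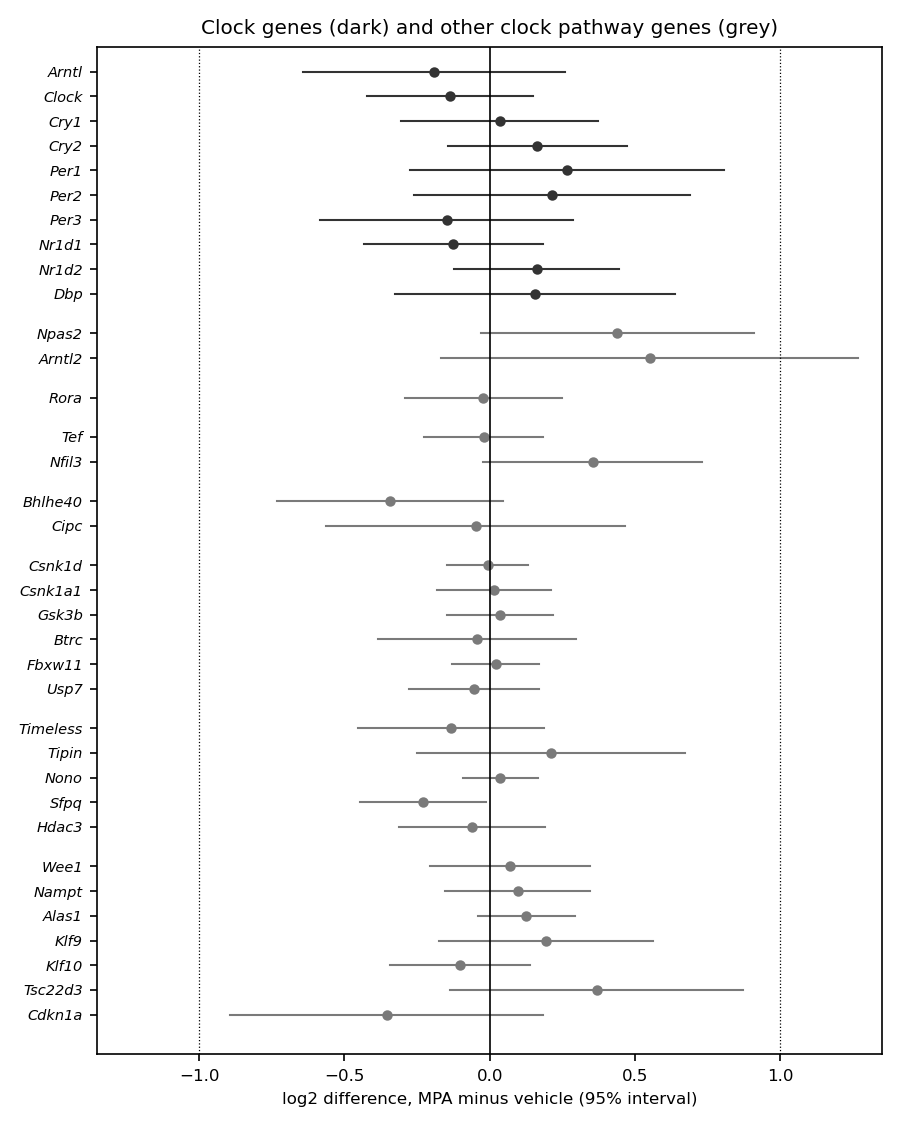
Log2 difference, MPA minus vehicle (horizontal axis), with its 95% interval from limma for the 10 clock genes (dark) and the 25 further clock pathway genes that passed the filter (grey), grouped by role. Dotted lines mark a 2-fold difference in either direction, and the interval of Sfpq is the only one drawn that leaves out 0.

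The arrays were washed on several fluidics stations, of which station 2 alone held both groups (MPA 1, MPA 2, vehicle 5 and vehicle 6). Within station 2 the difference kept its sign in 8 of the 10 clock genes and turned in 2. It was -0.45 in Arntl, -0.14 in Clock, 0.41 in Per1, 0.15 in Per2, 0.02 in Cry1, 0.01 in Cry2, 0.05 in Nr1d2 and 0.13 in Dbp. The Per3 difference turned to 0.47 (SE 0.16, unadjusted p = 0.0448) and that of Nr1d1 to 0.15 (SE 0.19), and limma called 0 genes there (lowest adjusted p = 0.840, 470 genes at an unadjusted p under 0.05). These values rest on 2 arrays against 2.

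Arrays of 1 treatment varied more in some clock genes than in others. The SD within groups was 0.47 in Per1, 0.41 in Per2, 0.41 in Dbp, 0.39 in Arntl and 0.37 in Per3, and between 0.23 and 0.28 in the other 5 genes. The median over all genes tested was 0.25. Set beside genes within 0.5 of the same mean log2 level, Dbp had a higher SD than 76.2% of 1679 genes, Per1 than 74.4% of 1334 and Per3 than 67.8% of 1567. Nr1d1 had a higher SD than 35.4% of 936 such genes and Nr1d2 than 42.6% of 1650. From the lowest to the highest array the span was 3.01-fold in Per2, 2.96-fold in Dbp, 2.59-fold in Per3 and 1.68-fold in Nr1d2. Some genes differed in spread between the groups: Clock had an SD of 0.31 in MPA and 0.11 in vehicle, Per2 0.54 and 0.19, and Per3 0.49 and 0.19. In Per1 (0.40 and 0.52), Dbp (0.35 and 0.47), Nr1d2 (0.20 and 0.25) and Cry2 (0.248 and 0.253) the SD was larger in vehicle. The difference in spread was not tested.

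Members of the loop were then compared with each other across arrays, on values with each group's mean removed, to see which varied together within a treatment. Of 45 pairs, 0 passed at a Benjamini-Hochberg adjusted permutation p under 0.05 over all pairs, and 3 had an unadjusted p under 0.05, all of them positive. Arntl and Clock, the partners of the activator complex, had r = 0.755 (permutation p = 0.0105, adjusted p = 0.406) and rho = 0.762 (permutation p = 0.0128, adjusted p = 0.4999). Their r was 0.781 within MPA, 0.739 within vehicle and 0.596 without MPA 6 and vehicle 2, the arrays farthest from the median of Arntl. Under quantile normalization this pair was past the threshold, with r = 0.805 (permutation adjusted p = 0.0238), and with the mean of each gene's probe sets r was 0.399 (permutation adjusted p = 0.514). Under the other alternatives run it lay between 0.774 and 0.807 and did not pass (permutation adjusted p from 0.0922 to 0.188). Per3 and Nr1d1 had r = 0.753 (permutation p = 0.0180, adjusted p = 0.406) and rho = 0.601 (permutation p = 0.0658, adjusted p = 0.4999), and r was 0.499 without MPA 2 and MPA 5. With the mean of each gene's probe sets their r was 0.832 (permutation adjusted p = 0.0756), and this pair passed under no alternative run. Nr1d2 and Dbp, both switched on through E-boxes, had r = 0.657 (permutation p = 0.0278, adjusted p = 0.418) and rho = 0.573 (permutation p = 0.0589, adjusted p = 0.4999), with r = 0.408 without MPA 2 and vehicle 5.

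The most negative pairs did not pass either. Arntl and Dbp, which peak about opposite each other in a running clock, had r = -0.560 (permutation p = 0.0531, adjusted p = 0.504) and rho = -0.636 (permutation p = 0.0355, adjusted p = 0.4999). Their r was -0.810 within MPA and -0.352 within vehicle, and -0.709 without MPA 6 and vehicle 2. Per2 and Nr1d1 had r = -0.553 (permutation p = 0.137, adjusted p = 0.535) and rho = -0.476 (permutation p = 0.166, adjusted p = 0.670). For this pair r was -0.807 within MPA and 0.571 within vehicle, and -0.295 without MPA 4 and MPA 6. Clock and Cry2 had r = -0.540 (permutation p = 0.0760, adjusted p = 0.535) and rho = -0.629 (permutation p = 0.0427, adjusted p = 0.4999), with r = -0.650 without MPA 3 and MPA 6. Which pair was the most negative depended on the setting. With the mean of each gene's probe sets it was Cry1 and Nr1d2 (r = -0.810, permutation adjusted p = 0.0756). With the first principal component removed it was Cry1 and Cry2 (r = -0.809, permutation adjusted p = 0.139). With 4 arrays or fewer per fluidics station, no r was computed within stations.

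**Figure D3:**
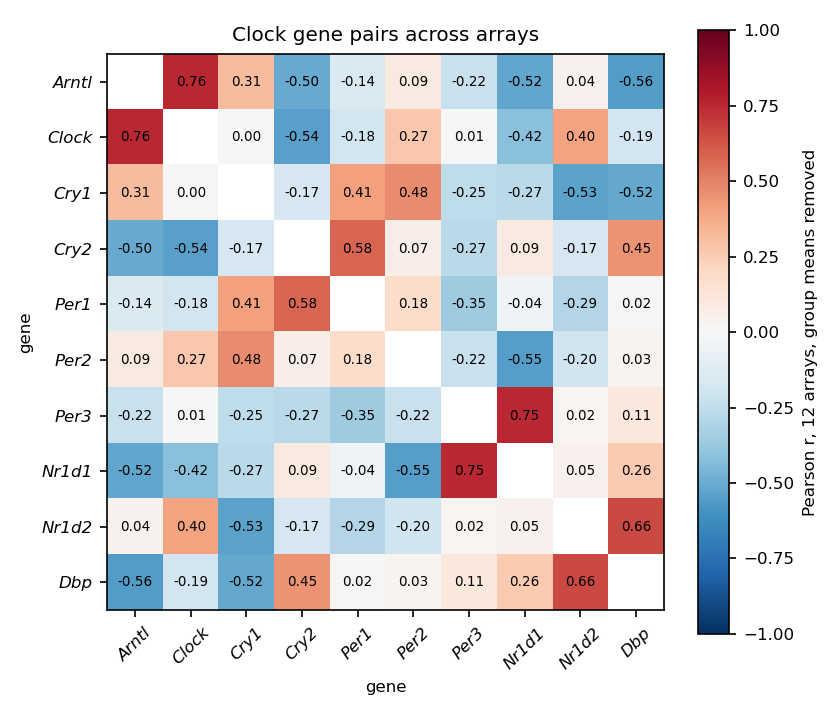
Pearson r between the clock genes (rows and columns) over the 12 arrays, with each treatment group's mean removed, from blue (-1) to red (1). Arntl with Clock (0.76) and Per3 with Nr1d1 (0.75) have the highest values and Arntl with Dbp the lowest (-0.56).

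Genes outside the loop followed single members more closely than the members followed each other, as the highest of 8785 candidates will tend to do. These values are a description over 12 arrays with group means removed. Per1 was most like Mmp7 (r = 0.974), Wdr6 (0.949) and Apbb2 (0.939). Clock was most like Mdc1 (0.950), Mthfd2l (0.950) and Kpna2 (0.927). The nearest genes to Per3 were Tcf25 (0.939), Mrpl48 (0.935) and Gsk3b (0.933), the last of which is in the list of clock kinases. Arntl was nearest to Trappc2 (0.939), Spidr (0.934) and Ect2 (0.899), and Nr1d2 to Taok1 (0.937), Tgif2 (0.897) and Ddx19b (0.892). For Nr1d1 they were Rangrf (0.902), Ptbp1 (0.878) and Lamtor4 (0.868), and for Per2 Kbtbd7 (0.891), Rab32 (0.884) and Polh (0.878). Cry1 was nearest to Steap1 (0.882), Ctsc (0.879) and Homer1 (0.875), and Cry2 to Mras, Ccdc50 and Adm (0.882 each). Dbp had the weakest likeness, to Ctdp1 (0.841), Rcn1 (0.804) and Piezo1 (0.795).

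Several clock genes had more than 1 probe set, and these did not always move together. Of 23 probe sets, 14 passed the filter and 9 stayed below a log2 value of 4 on every array (2.33 to 3.80): 4 of Per3, 2 of Per2 and 1 each of Arntl, Clock and Dbp. Clock had 3 that passed. Over the 12 arrays with group means removed, the brightest, 1418659_at, followed 1435775_at with r = 0.722 (permutation p = 0.00549, adjusted p = 0.0274 over 5 pairs) and rho = 0.881 (permutation p = 0.00063, adjusted p = 0.00315), and r was 0.850 without MPA 3 and MPA 6. It did not follow 1418660_at, with r = -0.05 (permutation p = 0.898, adjusted p = 0.898) and rho = 0.16 (permutation p = 0.655, adjusted p = 0.807), and r was 0.174 without MPA 3 and MPA 6. On 1418660_at, MPA 2 stood at 6.69 and the other MPA arrays between 5.48 and 5.92, all 5 below every vehicle array. Its difference was -0.20 (SE 0.17), against -0.02 (SE 0.13) on 1435775_at.

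The pair of Nr1d2 probe sets had r = 0.133 (permutation p = 0.680, adjusted p = 0.898) and rho = -0.08 (permutation p = 0.800, adjusted p = 0.807), with r = -0.639 without MPA 2 and vehicle 5. The pair of Per3 probe sets had r = 0.09 (permutation p = 0.794, adjusted p = 0.898) and rho = 0.15 (permutation p = 0.661, adjusted p = 0.807), with r = 0.385 without MPA 2 and MPA 5. Over the 3714 genes with at least 2 probe sets above the filter, the median r of the 2 brightest was 0.497, and 13.9% had an r below that of Clock. The second Nr1d2 probe set, 1416959_at, ranged from 5.82 in MPA 6 to 7.30 in MPA 2 and differed by 0.15 (SE 0.21). The second Per3 probe set, 1442243_at, had the smallest p of the 14, with -0.23 (SE 0.10, unadjusted p = 0.0320, adjusted p = 1.00 over 14959 probe sets). On it 4 of 6 MPA arrays lay below all vehicle arrays, at values between 3.84 and 4.13. These comparisons between probe sets were chosen after their values were seen, and the transcript parts they read were not compared here.

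**Figure D4:**
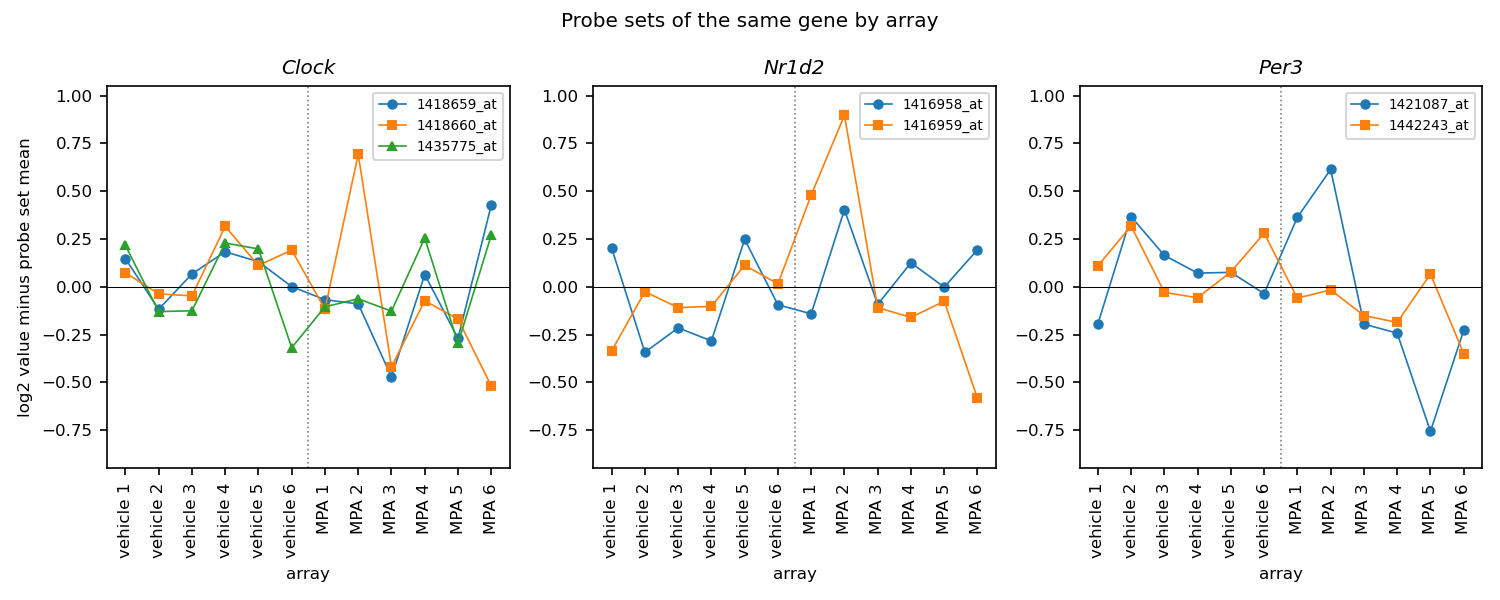
Log2 value minus the probe set's own mean (vertical axis) on each array (horizontal axis, vehicle left and MPA right of the dotted line) for the probe sets of Clock, Nr1d2 and Per3 that passed the filter. Clock 1418660_at and Nr1d2 1416959_at are highest in MPA 2 and lowest in MPA 6, whereas the brightest Clock probe set is highest in MPA 6, and the brighter Nr1d2 probe set is also highest in MPA 2 but lowest in vehicle 2.

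Defining markers of cervical tissue were present. All members of the lists for stratified epithelium (6 of 6), smooth muscle (6 of 6), fibroblasts (6 of 6) and simple epithelium (5 of 5) passed the filter, as did Pgr and Esr1, and 1 of 5 endothelial and 0 of 3 neutrophil markers did. By limma Pgr differed by -0.32 (SE 0.09, unadjusted p = 0.00489, adjusted p = 0.863) and Esr1 by 0.13 (SE 0.12). Among these tissue lists, all 6 stratified epithelium markers had lower means in MPA (median difference -0.33, list mean 9.70 to 11.7 in MPA and 11.0 to 11.6 in vehicle). All 6 fibroblast markers had higher means (median 0.14, list mean 8.93 to 11.5 in MPA and 9.84 to 11.1 in vehicle). So had all 6 smooth muscle markers (median 0.06, list mean 9.45 to 11.99 in MPA and 10.4 to 11.6 in vehicle). In each of these lists 0 of 6 passed or had an unadjusted p under 0.05 by limma. Of the 5 simple epithelium markers, 4 had lower means in MPA and Cdh1 a higher one. Their median difference was -0.14 (list mean 10.4 to 11.3 in MPA and 10.7 to 11.3 in vehicle), and 0 had an unadjusted p under 0.05 by limma. MPA 2 was the lowest of all arrays in every fibroblast and smooth muscle marker, among them Dcn with 7.81 and Myh11 with 10.8. MPA 5 was the lowest in every stratified epithelium marker, among them Krt4 with 5.85. Markers of some other cell types also differed in mean between the groups, although 0 of them passed limma's test after adjustment. The 4 macrophage markers above the filter, of 6 on the array, all had higher means in MPA (3 of them at an unadjusted p under 0.05, none with an adjusted p below 0.592), Cd68 and Adgre1 stayed below a log2 value of 4, and the mean of the list ran from 6.05 to 7.55 in MPA and from 5.72 to 6.61 in vehicle. Of 6 skeletal muscle markers 5 passed the filter, 4 of them lower in MPA (list mean 5.11 to 6.47 in MPA and 5.77 to 8.52 in vehicle). By limma 3 of these had an unadjusted p under 0.05, as had both fetal markers above the filter, all of them lower in MPA. Over all 8795 genes, 282 had an unadjusted p under 0.05 by limma with a higher mean in MPA, and 158 (1.80%) with a lower one. The fetal markers Afp and Hbb-y had differences of -1.30 (SE 0.44) and -2.71 (SE 0.76), with a list mean of 3.25 to 5.85 in MPA and 5.17 to 8.50 in vehicle, and Psg21 was below a log2 value of 4 on every array. The part of any of these tissues or cell types in the clock gene values was not tested.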

How the data were processed

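Cervical RNA was measured on 12 Affymetrix mouse arrays, 6 MPA and 6 vehicle, grouped and numbered by the sample titles. Per the labels' protocols, biotinylated cDNA was made from 100 ng of total RNA after amplification. The deposited table holds intensity values that the authors made with GCRMA, per the submitters' processing notes (no version stated). Values from 4.39 to 77974 showed a linear scale, and log2 was taken with no pseudocount. No detection calls were used, and the number of arrays limits the precision of each difference.

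Probe sets were named through the platform annotation (34958 with 1 symbol, 932 with several, 9211 not listed), and 34754 matched RefSeq (GRCm38.p6) by Entrez number. The treatment groups were compared in R 4.3.3 with limma 3.58.1 (lmFit and eBayes, default settings, no covariates) over 8795 genes, with Benjamini-Hochberg adjustment and a threshold of 0.05. This was tested on simulated data. Pair correlations had two-sided permutation p-values from 100000 draws within groups. In the alternative where group means were not removed, the draws ran across all arrays. Alternatives covered the filter, probe sets, normalization, pseudocount, variance model, array weights, station, replicate number, first principal component and arrays left out. The comparison of probe sets of 1 gene and the relation to the first component were added after seeing the data. Members, lists and tests were chosen with earlier results of these data known. Named were the 10 members with every probe set, in each pathway list the called genes or otherwise the 2 with the smallest p, the 3 genes most like each member, the 3 most positive and 3 most negative pairs, the gene with the smallest p of all, and Fkbp5. List genes below the filter were named after their values were seen. Figures were drawn with matplotlib 3.10.9.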

Additional observations from a re-analysis of the deposited data

Results flagged for a closer look

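In 3 of 54 groups of 6 arrays examined for the clock genes and the named pathway genes, 1 array lay far from the others, its gap to the nearest taking more than 0.625 of the group's range. Chance flags about 1 in 20 groups, or 2.7 here. Cry1 in vehicle 5 had 6.25, and the other vehicle arrays began at 6.82. Cry2 in vehicle 4 had 5.78, with the next vehicle array at 6.22. The Clock probe set 1418660_at had 6.69 in MPA 2, with the next MPA array at 5.92.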

How the results depend on the processing

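Of the 10 clock genes and of the 25 further pathway genes, 0 passed under every alternative run (lowest adjusted p by limma 0.535 and 0.431 for those named). Of 246 alternative values of the clock genes, 234 kept their direction, but part of these could not turn. The filters, the variance model and the replicate block leave each difference as it was in the main fit. So does the mean of probe sets for a gene with only 1 probe set above the filter. The 1 gene called over all genes became 0 without a filter, within station 2, with the first principal component as a covariate, without MPA 2 and MPA 5, and with every probe set tested by itself (added after seeing the data). Leaving out 1 array gave 0 to 1 called genes, with 1 only without vehicle 1. With the replicate number as a block it was 0. Arrays of the same number correlated between -0.60 and 0.05, and 0 of 6 matched best with its own number. The labels do not state that a number marks a shared animal, day or batch, and such correlations cannot settle it. The block changed no call among the clock genes.

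Turned signs were as follows, and their cause was not tested. With station as a block and within station 2, Per3 had 0.47, Nr1d1 0.15, Npas2 -0.24, Tef 0.10, Sfpq 0.040 and Tsc22d3 -0.21. Only station 2 held both groups, so the block takes its differences from the same arrays. These alternatives therefore give the same difference for each gene and are not separate evidence. Without MPA 2 and MPA 5, Arntl had 0.031 and Dbp -0.043, and with array weights Dbp had -0.027. With the first component as a covariate, Cry1 had -0.023 and Rora 0.026. With the mean of a gene's probe sets, Rora had 0.079, Tef 0.035 and Cipc 0.048. Leaving out 1 array moved Cry1 between -0.073 (without vehicle 5) and 0.12, Dbp between -0.014 (without vehicle 4) and 0.25, Rora between -0.095 and 0.033, Tef between -0.086 and 0.026, Cipc between -0.19 and 0.083, and Gsk3b between -0.0031 and 0.093. It moved the other clock genes without turning them: Per2 from 0.037 (without MPA 6) to 0.35 (without MPA 4), Per3 from -0.29 (MPA 2) to -0.012 (MPA 5), Clock from -0.24 (MPA 6) to -0.056 (MPA 3), Arntl from -0.31 (MPA 6) to -0.097 (MPA 2), Nr1d1 from -0.21 (MPA 2) to -0.046 (MPA 6), Cry2 from 0.068 (vehicle 4) to 0.22 (MPA 6), Per1 from 0.16 (vehicle 4) to 0.41 (MPA 2) and Nr1d2 from 0.098 (MPA 2) to 0.23 (vehicle 5). Quantile normalization gave 1 correlated pair instead of 0, Arntl with Clock, whose r was 0.399 with the mean of each gene's probe sets (permutation adjusted p = 0.514). Quantile normalization moved genes at an unadjusted p under 0.05 from 282 higher and 158 lower to 220 and 210. A filter at a log2 value of 5 left 6 of the 10 clock genes, without Arntl, Per1, Per2 and Nr1d1, whose signal lay close to background.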

Other observations

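The first principal component of the 8795 genes held 48.5% of the variance between arrays and was lowest in MPA 2 (-57.3) and highest in MPA 5 (41.5). MPA 2 was also the lowest array in every fibroblast and smooth muscle marker, and MPA 5 in every stratified epithelium marker. The relation of the component to these markers was not tested. Of 14 relations of clock gene probe sets to it, with group means removed, 0 passed for Pearson's r after adjustment and 1 passed for Spearman's rho. That one was the Clock probe set 1418660_at, with r = -0.839 (permutation p = 0.00943, adjusted p = 0.0660) and rho = -0.818 (permutation p = 0.00318, adjusted p = 0.0445). Its r was -0.421 without MPA 2 and vehicle 4, so that the relation rests in part on those arrays. Per1 had r = 0.738 (permutation p = 0.00617, adjusted p = 0.0660) and rho = 0.664 (permutation p = 0.0237, adjusted p = 0.111), with r = 0.801 within MPA, 0.801 within vehicle and 0.487 without MPA 2 and vehicle 4. These relations were computed after the values were seen, and each probe set that stands for its gene enters the component itself.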
